A study of Homo sapiens with 60 samples.

Results

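Metallothioneins were followed across 20 treatment groups of the human astrocytoma cell line SW1783. The members were 6 genes picked by name: MT2A, MT1X, MT1E, MT1F, MT1G and MT1M. All 6 were found by Ensembl identifier among 60675 gene rows, which hold 20 metallothionein genes and pseudogenes in all. MT2A, MT1X, MT1E and MT1F passed the filter on low counts and were tested. MT1G and MT1M did not pass it and are described by their counts.

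Cells of this purchased line were kept in L-15 medium and exposed for 24 h, with 3 libraries per group and 60 libraries in all. The groups were vehicle (DMSO), wortmannin at 10 µM, which inhibits phosphoinositide 3-kinases, and water extracts of 6 medicinal plant parts at 3 concentrations each. Liriopis seu Ophiopogonis Tuber, Schisandrae Fructus, Longan Arillus, Zizyphi Semen and Aucklandiae Radix were given at 20, 100 and 500 µg/mL. Polygalae Radix was given at 10, 50 and 250 µg/mL, because by the design text a lower top concentration was used for extracts that inhibited the cells below 500 µg/mL. The 3 concentrations are called low, medium and high here. The labels do not say that replicates came from separate cultures, so every p-value measures only the spread between these libraries, which may be technical.

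Metallothioneins are small cysteine-rich proteins that bind zinc, copper and cadmium through their thiol groups. When free zinc rises, the zinc-finger factor MTF1 binds metal response elements in their promoters and in that of SLC30A1, a zinc exporter of the plasma membrane. Oxidative stress and glucocorticoids also induce several metallothioneins. In brain they are expressed mainly by astrocytes, and MT2A and MT1X are widely expressed isoforms.

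The members lie side by side on chromosome 16 of GRCh38, in a cluster of 14 metallothionein genes and pseudogenes spanning 76.0 kb (chr16:56608199-56684196), of which 13 are on the plus strand and 1, MT1G, on the minus strand. By GENCODE 29, MT2A spans chr16:56608199-56609497, MT1E chr16:56625475-56627112, MT1M chr16:56632233-56633986, MT1F chr16:56657694-56660698, MT1G chr16:56666731-56668065 and MT1X chr16:56682424-56684196. MT2A, MT1E and MT1X carried nearly all metallothionein reads, and their coding sequences are printed because the closeness of these copies bears on how far reads can tell them apart. Each is 186 bases long from start to stop codon, read here from the GENCODE 29 transcripts, and capitals mark the bases at which MT1E and MT1X differ from MT2A.
MT2A: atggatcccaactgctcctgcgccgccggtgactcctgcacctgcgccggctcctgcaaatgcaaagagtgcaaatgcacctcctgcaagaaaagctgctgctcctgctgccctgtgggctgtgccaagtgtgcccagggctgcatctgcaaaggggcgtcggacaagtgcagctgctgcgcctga
MT1E: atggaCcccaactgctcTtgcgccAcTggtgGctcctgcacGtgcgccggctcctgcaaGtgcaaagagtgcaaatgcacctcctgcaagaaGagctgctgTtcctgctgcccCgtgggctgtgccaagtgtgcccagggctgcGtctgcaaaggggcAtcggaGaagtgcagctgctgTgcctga
MT1X: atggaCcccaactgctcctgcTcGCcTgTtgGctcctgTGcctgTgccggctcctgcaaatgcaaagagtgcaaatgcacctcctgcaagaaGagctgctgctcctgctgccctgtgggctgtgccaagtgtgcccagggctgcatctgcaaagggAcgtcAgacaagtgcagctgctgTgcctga

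MT1E and MT1X each differ from MT2A at 14 of 186 coding bases (92.5% identity) and from each other at 17 (90.9%). The longest stretch without a difference between MT1X and MT2A is 63 bases, which is shorter than a read of 100 bases. No window of 100 bases in any transcript of the 6 members occurs in a transcript of another metallothionein gene. MT1X shares 223 of its 1967 windows (11.3%) with AC026461.1, a gene annotated over it on the same strand, and AC026461.1 was at 0 counts in all 60 libraries. Expected counts were whole numbers in all 60 libraries for MT1E, MT1F and MT1M, and were not whole in 5 libraries for MT2A, 8 for MT1X and 4 for MT1G.

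RefSeq promoters (GRCh38.p14, 250 bases before to 50 after the start of transcription) were at hand for 2 of the 6 members. They are printed because both genes are known targets of MTF1 and did not follow the same pattern below. Capitals mark matches to the core of the metal response element, TGCACNC or TGCGCNC, on either strand.
MT2A, chr16:56608334-56608633: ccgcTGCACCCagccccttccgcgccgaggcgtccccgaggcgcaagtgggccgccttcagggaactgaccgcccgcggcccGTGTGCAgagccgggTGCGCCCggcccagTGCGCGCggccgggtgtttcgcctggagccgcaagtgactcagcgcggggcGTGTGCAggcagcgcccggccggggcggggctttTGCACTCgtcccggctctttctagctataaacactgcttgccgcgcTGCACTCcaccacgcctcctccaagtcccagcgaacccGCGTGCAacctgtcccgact
MT1X, chr16:56682220-56682519: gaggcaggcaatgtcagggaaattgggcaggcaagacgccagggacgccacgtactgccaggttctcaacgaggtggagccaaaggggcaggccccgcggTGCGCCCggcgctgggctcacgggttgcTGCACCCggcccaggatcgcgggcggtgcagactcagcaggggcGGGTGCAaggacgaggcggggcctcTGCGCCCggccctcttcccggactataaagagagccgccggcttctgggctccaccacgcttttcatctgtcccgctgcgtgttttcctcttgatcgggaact

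The MT2A window holds 8 such matches and the MT1X window 4. Among 35116 RefSeq promoters of the same length, 29.6% hold at least 1 match, 2.3% at least 3 and 0.162% at least 5. Each window also holds 1 match to the antioxidant response core TGACNNNGC, found in 13.3% of promoters. A match describes letters in a window and does not show binding.

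Libraries held 9.34 M to 35.35 M expected counts (median 25.7 M), and mitochondrial genes took 7.79 to 13.4% of them. Levels are given on a counts-per-million scale (CPM) adjusted by edgeR's TMM factors, and 3 counts, the limit that a count of 0 allows, amount to 0.0858 to 0.316 CPM by library, covering counting error only. Of 10 astrocyte markers, GJA1 (203 CPM), SOX9 (81.1 CPM) and SLC1A3 (31.5 CPM) were well expressed in vehicle, while GFAP was at 0.148 CPM, AQP4 at 0, and S100B, ALDH1L1 and FABP7 were under 0.1 CPM. Fibroblast and mural markers summed to 6044 to 6315 CPM in the vehicle libraries. The library names fall into sets that separate vehicle, wortmannin and each pair of extracts (Liriopis with Schisandrae, Longan with Zizyphi, Polygalae with Aucklandiae), so a set and a treatment cannot be told apart in any comparison with vehicle, while concentrations of one extract are compared within a set. One library, replicate 1 of Liriopis at 500 µg/mL, stood apart from its group, with a mean correlation of 0.945 to its replicates. The spread is estimated over all groups, and with this library the standard error of the MT2A change under wortmannin was 0.20 against 0.10 without it. Where leaving it out changes the call of a member or of the MT1 sum, the calls of both fits are given.

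In vehicle, MT2A was the most abundant member by a wide margin. Per kilobase of its main transcript it stood at 155 CPM ± 9.93 (SD, n = 3), against 17.15 ± 1.63 for MT1X, 11.25 ± 2.34 for MT1E, 0.482 ± 0.0371 for MT1F, 0.0897 ± 0.0902 for MT1G and 0.0594 ± 0.0249 for MT1M. The MT1 members together gave 24436 counts over all libraries and MT2A gave 221168.

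MT2A, the main metallothionein of these cells, was highest under Polygalae at 250 µg/mL and under wortmannin, at about the same level, and stood near vehicle under most other treatments. Its level was 129, 122 and 114 CPM in the 3 vehicle libraries. It was 250.5, 235 and 237 CPM under wortmannin and 241, 251 and 236 CPM under Polygalae at 250 µg/mL. All 6 of these libraries lay above every vehicle library.

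Against vehicle, MT2A rose under wortmannin by 0.99 on the log2 scale (SE 0.20, edgeR adjusted p = 0.000462). Wortmannin raised 2 of the 4 tested members, MT2A and MT1E, where 5.45% of all tested genes rose. MT2A rose by 1.00 (SE 0.20, edgeR adjusted p = 5.07e-05) under Polygalae at 250 µg/mL, where again MT2A and MT1E rose among the 4 and 23.1% of all genes did. The mean level under Polygalae was higher at each higher concentration. The step from 10 to 50 µg/mL did not pass (0.16, SE 0.20, edgeR adjusted p = 0.734). Replicates of Polygalae at 10 µg/mL gave MT2A at 166, 158 and 159 CPM, and those at 50 µg/mL gave 183, 182 and 174 CPM. Both groups lay above vehicle and below the group at 250 µg/mL without overlap.

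The change of MT2A from vehicle was 0.40 (SE 0.20, edgeR adjusted p = 0.292) at 10 µg/mL of Polygalae and 0.56 (SE 0.20, edgeR adjusted p = 0.02735) at 50 µg/mL. At 10 µg/mL none of the 4 members passed, where 6.46% of all genes did. At 50 µg/mL MT2A and MT1E rose, where 15.2% of all genes rose. The MT2A call at 50 µg/mL ended without any 1 of that group's replicates or without vehicle replicate 2 or 3 (edgeR adjusted p up to 0.0940). Without replicate 1 of Liriopis at 500 µg/mL, MT2A also passed at 10 µg/mL, at 0.41 (SE 0.10, edgeR adjusted p = 0.00331), as did MT1E (0.50, edgeR adjusted p = 0.00193), where 6.66% of all genes rose. Within the set, MT2A was 0.59 higher (SE 0.20, edgeR adjusted p = 0.0161) at 250 than at 10 µg/mL of Polygalae, and it was the 1 member of 4 that rose, where 17.9% of all genes rose.

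Aucklandiae at 500 µg/mL gave a smaller shift of the same sign. MT2A was at 164, 169.5 and 176 CPM, above all vehicle libraries, while Aucklandiae at 20 µg/mL gave 125, 114 and 125 CPM. The change was 0.48 (SE 0.20, edgeR adjusted p = 0.112) against vehicle and 0.49 (SE 0.20, edgeR adjusted p = 0.124) against 20 µg/mL, and neither passed. No tested member passed in these comparisons, where 13.2% and 10.6% of all genes did. Both passed without the Liriopis library that stood apart, with edgeR adjusted p = 0.000218 and 0.000269 at the same size, where 11.6% and 10.0% of all genes rose.

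**Figure D1:**
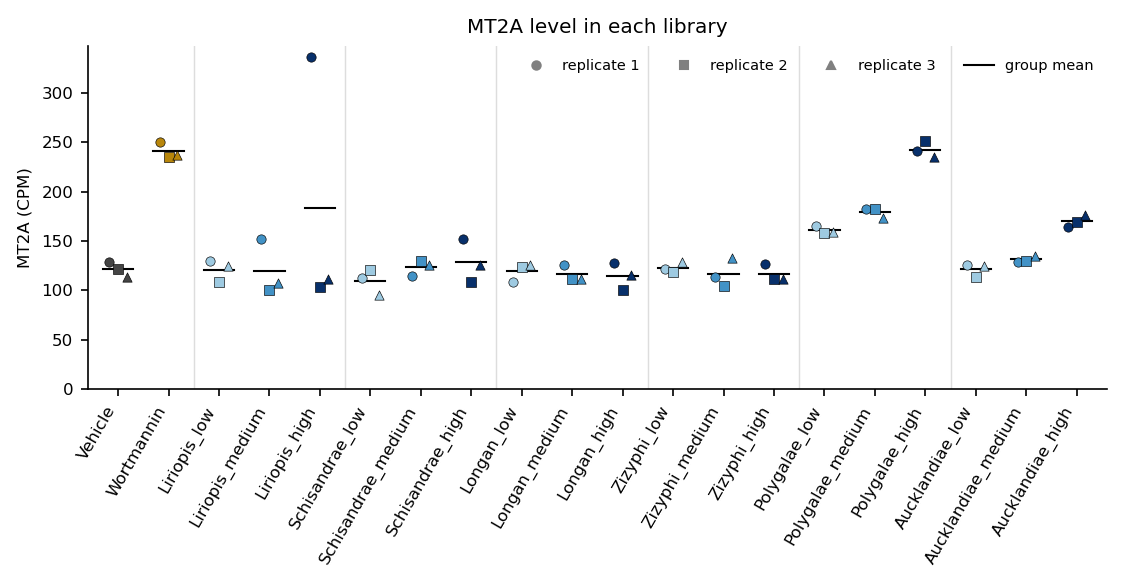
MT2A in CPM (vertical axis, from 0) in each of the 60 libraries, by treatment group; symbols mark replicates 1 to 3, the bar the group mean, and darker blue a higher concentration. Wortmannin and the highest Polygalae concentration lie between 235 and 251 CPM, all above the vehicle libraries, and 1 of the 3 libraries of the highest Liriopis concentration lies at 336 CPM.

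MT2A did not pass under Schisandrae, Longan or Zizyphi at any concentration. Schisandrae at 500 µg/mL gave 152, 108 and 126 CPM, a change of 0.08 (SE 0.20, edgeR adjusted p = 0.764) whose range held all 3 vehicle values. In the order of group means, Polygalae at 250 µg/mL (243 CPM ± 7.75, SD, n = 3) and wortmannin (241 ± 8.28) overlapped. Liriopis at 500 µg/mL (184 ± 132) overlapped its neighbours, and Polygalae at 50 µg/mL (179.6 ± 5.03), Aucklandiae at 500 µg/mL (169.8 ± 5.94) and Polygalae at 10 µg/mL (161 ± 4.33) followed. The libraries of the next group, Aucklandiae at 100 µg/mL (131 ± 3.40), lay wholly below that last one, and below this point each group overlapped the next down to Schisandrae at 20 µg/mL (109.5 ± 12.9).

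MT1E and MT1X encode MT1 isoforms that bind the same metals as MT2A. Both had their lowest group mean under Schisandrae at 500 µg/mL, a treatment that left MT2A near vehicle. For MT1X that group overlapped Longan at 500 µg/mL (4.04 to 6.09 CPM). MT1E was at 7.67, 9.68 and 6.41 CPM in vehicle and at 2.46, 3.03 and 2.27 CPM under Schisandrae at 500 µg/mL. The highest of the latter was below the lowest vehicle value. MT1E fell by 1.62 on the log2 scale (SE 0.23, edgeR adjusted p = 5.65e-08). MT1X fell by 0.65 (SE 0.19, edgeR adjusted p = 0.00363), from 7.78, 8.42 and 6.95 CPM to 4.92, 4.40 and 5.37 CPM, again without overlap. These were 2 of the 4 tested members, in a comparison where 25.6% of all genes fell.

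Both differences also held within the library set. Against Schisandrae at 20 µg/mL, MT1E fell by 1.24 (SE 0.24, edgeR adjusted p = 1.84e-05) and MT1X by 0.56 (SE 0.19, edgeR adjusted p = 0.01315), where 24.8% of all genes fell. The MT1X call ended when replicate 2 of the highest or replicate 1 of the lowest Schisandrae concentration was left out, with an edgeR adjusted p of up to 0.101. At 100 µg/mL MT1E was at 5.47, 5.68 and 6.09 CPM, below all vehicle libraries (change -0.46, SE 0.20, edgeR adjusted p = 0.382), and no member passed, where 1.02% of all genes did. Without the Liriopis library that stood apart the MT1E change at 100 µg/mL passed (edgeR adjusted p = 0.0264), where 2.64% of all genes fell.

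MT1E was higher than in vehicle under wortmannin and Polygalae. MT1E was at 11.97, 12.5 and 12.4 CPM under wortmannin, above every vehicle library. It rose by 0.63 (SE 0.19, edgeR adjusted p = 0.0180). It rose by 0.55 (SE 0.19, edgeR adjusted p = 0.0222) at 50 µg/mL of Polygalae and by 0.58 (SE 0.19, edgeR adjusted p = 0.00994) at 250 µg/mL. These calls lean on the vehicle group, whose 3 MT1E values spread widely. The wortmannin call also ended without vehicle replicate 1 or wortmannin replicate 2 or 3, and the call at 50 µg/mL without vehicle replicate 1 or that group's replicate 3. Leaving out vehicle replicate 3 gave an edgeR adjusted p of 0.136 under wortmannin, 0.146 at 50 µg/mL and 0.0817 at 250 µg/mL. The level of MT1E already stood at 10.6, 9.95 and 12.9 CPM at 10 µg/mL, and it did not differ between 250 and 10 µg/mL beyond the spread (11.8 ± 0.406 against 11.2 ± 1.58 CPM, SD, n = 3). MT1X was at 10.6, 10.2 and 9.71 CPM at 250 µg/mL (change 0.40, SE 0.18, edgeR adjusted p = 0.0560), and it passed there without the Liriopis library (edgeR adjusted p = 0.000985), where 27.5% of all genes rose. Its change of 0.36 at 50 µg/mL (SE 0.17, edgeR adjusted p = 0.120) was 0.37 in that fit and passed (edgeR adjusted p = 0.00417).

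**Figure D2:**
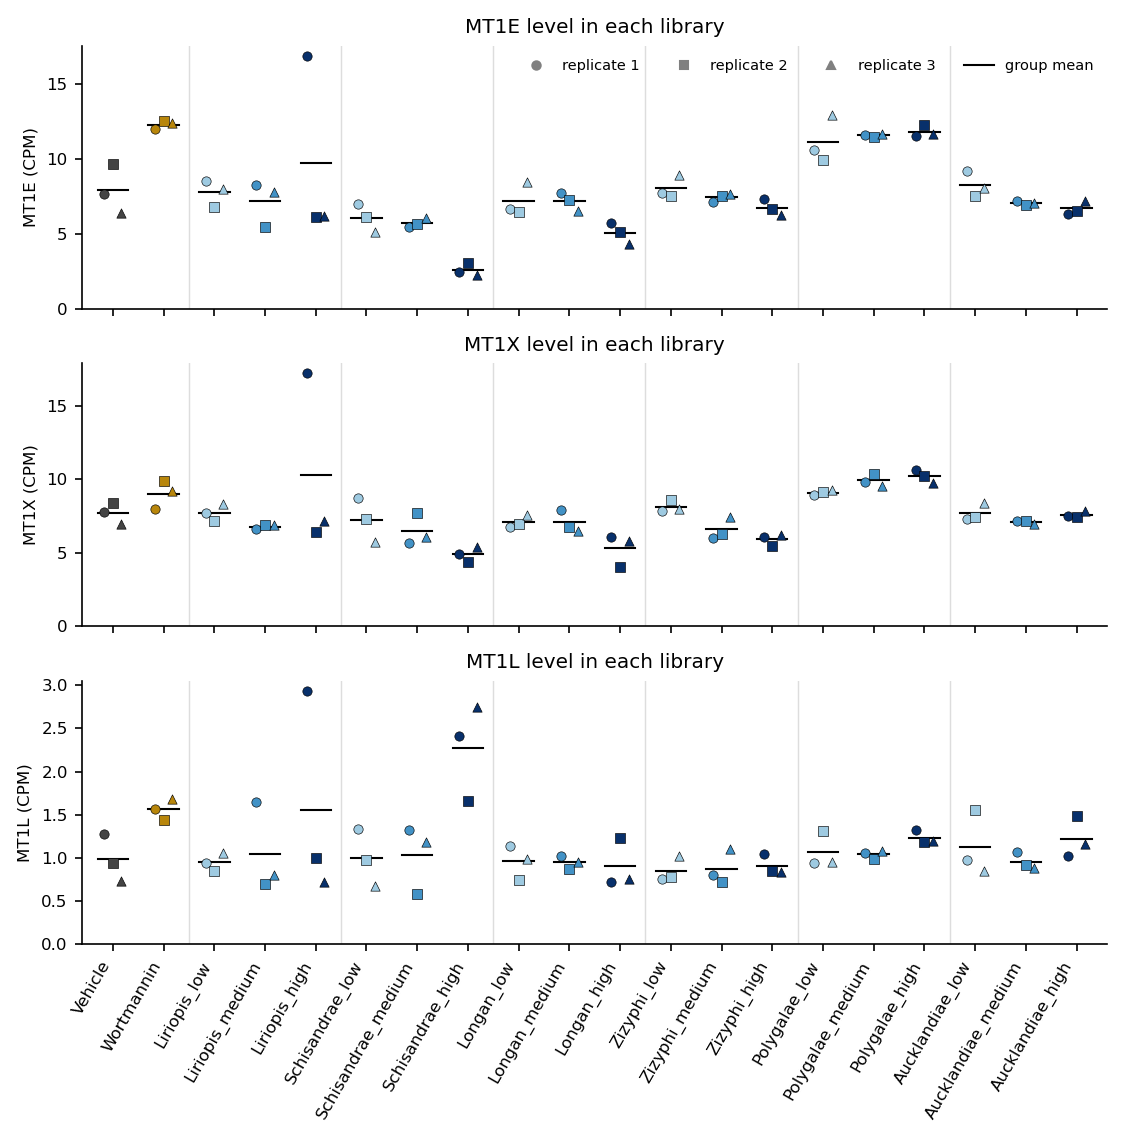
MT1E, MT1X and the pseudogene MT1L in CPM (vertical axes, from 0) in each of the 60 libraries by treatment group; symbols mark replicates and bars group means. Under the highest Schisandrae concentration MT1E lies at 2.27 to 3.03 CPM, below all other libraries, MT1X lies below all vehicle libraries, and MT1L lies at 1.66 to 2.75 CPM, above all vehicle libraries.

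Longan and Zizyphi, plants given in the same library set, left the MT1 genes near or below vehicle. Zizyphi at 20 µg/mL had means slightly above vehicle, with overlapping libraries. MT1E was at 8.06 ± 0.740 CPM there and 7.92 ± 1.65 in vehicle, and MT1X at 8.13 ± 0.380 and 7.72 ± 0.736 (SD, n = 3). MT1E was at 5.72, 5.15 and 4.31 CPM under Longan at 500 µg/mL, below all vehicle libraries (change -0.65, SE 0.20, edgeR adjusted p = 0.107). MT1X stood at 6.09, 4.04 and 5.80 CPM there (change -0.52, SE 0.18, edgeR adjusted p = 0.166). No member passed, where 0.843% of all genes did under Longan and 0.607% under Zizyphi at 500 µg/mL. MT1E and MT1X passed under Longan without the Liriopis library that stood apart (edgeR adjusted p = 0.00105 and 0.00349), where 3.93% of all genes fell. Against 20 µg/mL in the same fit, MT1E fell by 0.51 under Longan (edgeR adjusted p = 0.0235) and MT1X by 0.46 under Zizyphi (edgeR adjusted p = 0.0142), where 1.00% and 1.45% of all genes fell. With that library kept, no member passed against 20 µg/mL, where 0.247% of all genes did under Longan and 0.674% under Zizyphi.

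The summed counts of the 5 MT1 members do not depend on how the counting split reads between these 5, but leave out the other MT1 rows. They were lowest in the same group as MT1E. The sum was at 15.9, 18.5 and 13.7 CPM in vehicle and at 7.54, 7.83 and 8.12 CPM under Schisandrae at 500 µg/mL, the lowest of all groups. It fell by 1.04 against vehicle (SE 0.19, edgeR adjusted p = 8.22e-06) and by 0.81 against Schisandrae at 20 µg/mL (SE 0.19, edgeR adjusted p = 0.000366). Summing every MT1 row, MT1L and MT1A included, gave 17.1 ± 2.48 CPM in vehicle and 10.4 ± 0.696 CPM under Schisandrae at 500 µg/mL (SD, n = 3). In that wider sum the Schisandrae libraries, at 9.93 to 11.2 CPM, lay below vehicle and overlapped Longan at 500 µg/mL (10.7 to 12.9 CPM). Under Polygalae the sum of the 5 members rose by 0.45 at 50 µg/mL (SE 0.17, edgeR adjusted p = 0.0407) and by 0.48 at 250 µg/mL (SE 0.17, edgeR adjusted p = 0.0169). Without vehicle replicate 3 these calls ended, with edgeR adjusted p = 0.195 and 0.104, and the first also ended without vehicle replicate 1 or any 1 of its own replicates. Under wortmannin it was at 20.7, 23.2 and 22.3 CPM, above all vehicle libraries, and the change of 0.46 (SE 0.17) did not pass (edgeR adjusted p = 0.0708). Without the Liriopis library it passed, as did the Longan change of -0.58 at 500 µg/mL (edgeR adjusted p = 0.000111 and 9.38e-05). The same fit called 0.37 at 10 µg/mL of Polygalae (edgeR adjusted p = 0.00368, against 0.255 with the library) and -0.36 at 100 µg/mL of Schisandrae (edgeR adjusted p = 0.0246, against 0.477). Against 20 µg/mL it called -0.47 under Longan (edgeR adjusted p = 0.00403, against 0.403) and -0.36 under Zizyphi (edgeR adjusted p = 0.0277, against 0.638).

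**Figure D3:**
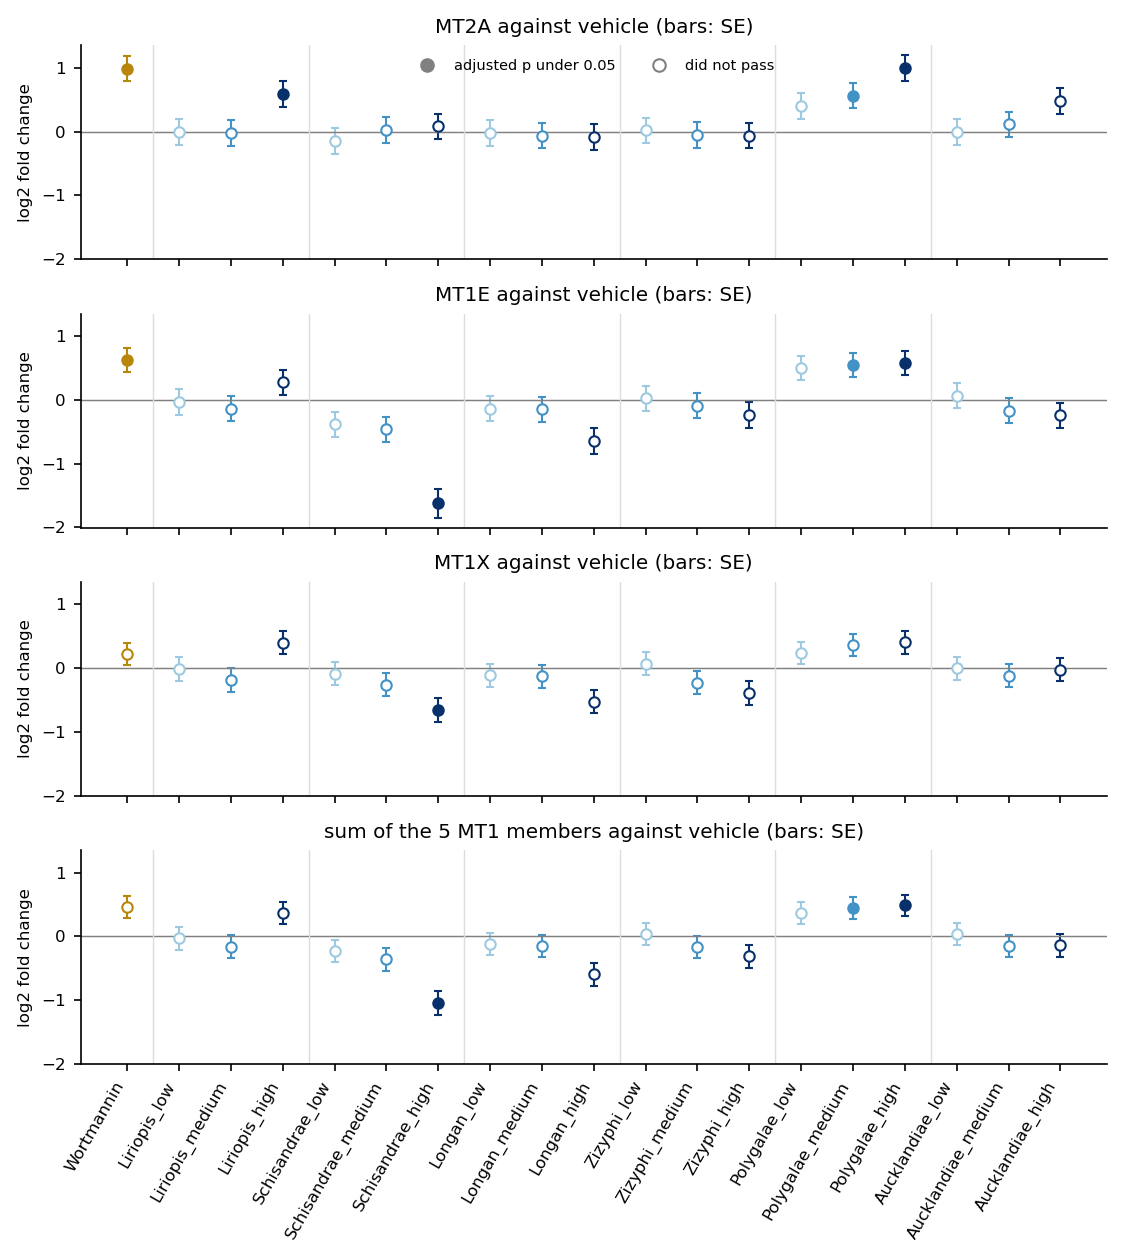
Log2 fold change against vehicle of MT2A, MT1E, MT1X and the MT1 sum (vertical axes) for wortmannin and each extract and concentration (horizontal axis); points are edgeR estimates, bars their standard errors, and filled points passed an adjusted p of 0.05. Polygalae and wortmannin lie above 0 in all 4 panels, and Schisandrae at its highest concentration lies near 0 for MT2A and at -1.62 for MT1E.

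In Liriopis at 500 µg/mL the direction of the MT2A change rested on 1 library. Replicate 1 held MT2A at 336 CPM, MT1E at 16.9, MT1X at 17.2, MT1F at 1.07 and MT1L at 2.93 CPM, each the highest value of the 60 libraries. The other 2 replicates held MT2A at 104 and 111 CPM and MT1E at 6.15 and 6.197 CPM, below the lowest vehicle library in both genes. With all 3, MT2A passed against vehicle (0.59, SE 0.20, edgeR adjusted p = 0.0220) as 1 of 4 members, where 18.7% of all genes rose. It also passed against 20 µg/mL (0.60, SE 0.20, edgeR adjusted p = 0.0379), where 11.8% of all genes rose. With the replicate number of each set as a block, the change against 20 µg/mL was 0.49 (edgeR adjusted p = 0.0652). The first call also ended without vehicle replicate 2 or 3, and the second without any 1 of the replicates at 20 µg/mL.

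Without that replicate the MT2A change under Liriopis turned to -0.17 against both (edgeR adjusted p = 0.773 and 0.928), where 0.00553% of all genes passed against vehicle and 0% against 20 µg/mL. What set this library apart was not tested. Its MTF1 level, 20.8 CPM, was the lowest of the 60 libraries. It held 20.45 M counts, inside the range of its group and of the series. Its TMM factor, 0.918, was the lowest of the 60, against 1.002 and 1.006 in its replicates. Its mitochondrial share, 8.71%, was the lowest of its group.

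Schisandrae and Liriopis were given at the same 500 µg/mL in the same library set and differed in the MT1 genes. MT1E was 1.90 lower under Schisandrae (log2 change -1.90, SE 0.23, edgeR adjusted p = 1.43e-09), where 31.9% of all genes were lower and 3 of the 4 members were. MT1X differed by -1.05 (SE 0.19, edgeR adjusted p = 7.635e-06) and the MT1 sum by -1.40 (SE 0.19, edgeR adjusted p = 2.015e-08). MT2A differed by -0.51 (SE 0.20, edgeR adjusted p = 0.0265), a call that ended without Schisandrae replicate 2 or 3 (edgeR adjusted p up to 0.1315). With the replicate number of each set as a block the MT2A difference was -0.41, which did not pass (edgeR adjusted p = 0.0526). Without replicate 1 of Liriopis the MT1E difference was -1.27 (edgeR adjusted p = 3.46e-08) and that of MT1X -0.48 (edgeR adjusted p = 0.00377), where 27.1% of all genes were lower, while MT2A turned to 0.26 (edgeR adjusted p = 0.05735).

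The change from 20 to 500 µg/mL was itself compared between the extracts of a set, which was decided after the data were seen. For Schisandrae against Liriopis, 7758 of 17792 tested genes passed in either direction, and 7723 of 18078 without replicate 1 of Liriopis. The change was more negative under Schisandrae than under Liriopis by 1.55 for MT1E (difference -1.55, SE 0.31, edgeR adjusted p = 8.24e-05) and by 0.97 for MT1X (difference -0.97, SE 0.27, edgeR adjusted p = 0.00323). Without replicate 1 of Liriopis these were -0.91 (edgeR adjusted p = 0.000793) and -0.40 (edgeR adjusted p = 0.0798), so the call held for MT1E and ended for MT1X. The MT2A difference of -0.37 (SE 0.29, edgeR adjusted p = 0.310) did not pass with all libraries. Without that replicate it had the opposite sign and passed, at 0.40 (SE 0.16, edgeR adjusted p = 0.0350).

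Zizyphi and Longan, both at 500 µg/mL, did not differ in any tested member, where 1.01% of all genes did. The MT1E difference was 0.41 (SE 0.20, edgeR adjusted p = 0.612), from 6.75 ± 0.539 CPM under Zizyphi and 5.06 ± 0.711 CPM under Longan (SD, n = 3), with no overlap of the libraries. Polygalae and Aucklandiae had different top concentrations, and their levels stand side by side above with no direct comparison. Their changes from the lowest to the highest concentration were compared, as were those of Zizyphi and Longan. No tested member passed in either contrast, with or without the Liriopis library that stood apart. With all libraries, 4062 and 40 of 17792 genes passed in them.

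MT2A and the MT1 genes did not keep one proportion across the groups. Per MT1 count there were 7.66 ± 0.939 MT2A counts in vehicle (SD, n = 3), 11.0 ± 0.996 under wortmannin, 10.8 ± 0.118 under Polygalae at 250 µg/mL, 11.7 ± 0.217 under Aucklandiae at 500 µg/mL, 10.8 ± 0.380 under Longan at 500 µg/mL and 16.5 ± 3.28 under Schisandrae at 500 µg/mL. The ratio was higher at the highest than at the lowest concentration, without overlap, in all 6 extracts. In each of these the two-sided exact permutation test gave p = 0.10, the smallest that 3 against 3 libraries allows (Benjamini-Hochberg 0.153 over 26 tests). This includes Liriopis, where replicate 1 held both kinds of gene high and the ratio lay at 7.92 to 9.49 against 7.596 to 7.82 at 20 µg/mL.

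MT1E and MT1X stood at near equal counts in most groups, with 1.02 ± 0.117 MT1E counts per MT1X count in vehicle (SD, n = 3). The ratio was 0.537 ± 0.137 under Schisandrae at 500 µg/mL and 1.37 ± 0.121 under wortmannin. It was 0.881 ± 0.0374 under Aucklandiae at 500 µg/mL. All 3 groups lay outside the vehicle range, with exact permutation p = 0.10 each. The lowest Schisandrae concentration also lay wholly below vehicle, at 0.807 to 0.8905, and overlapped Aucklandiae at 500 µg/mL. Its ratio was not tested against vehicle. The low ratio under Schisandrae was thus partly present at its lowest concentration.

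**Figure D4:**
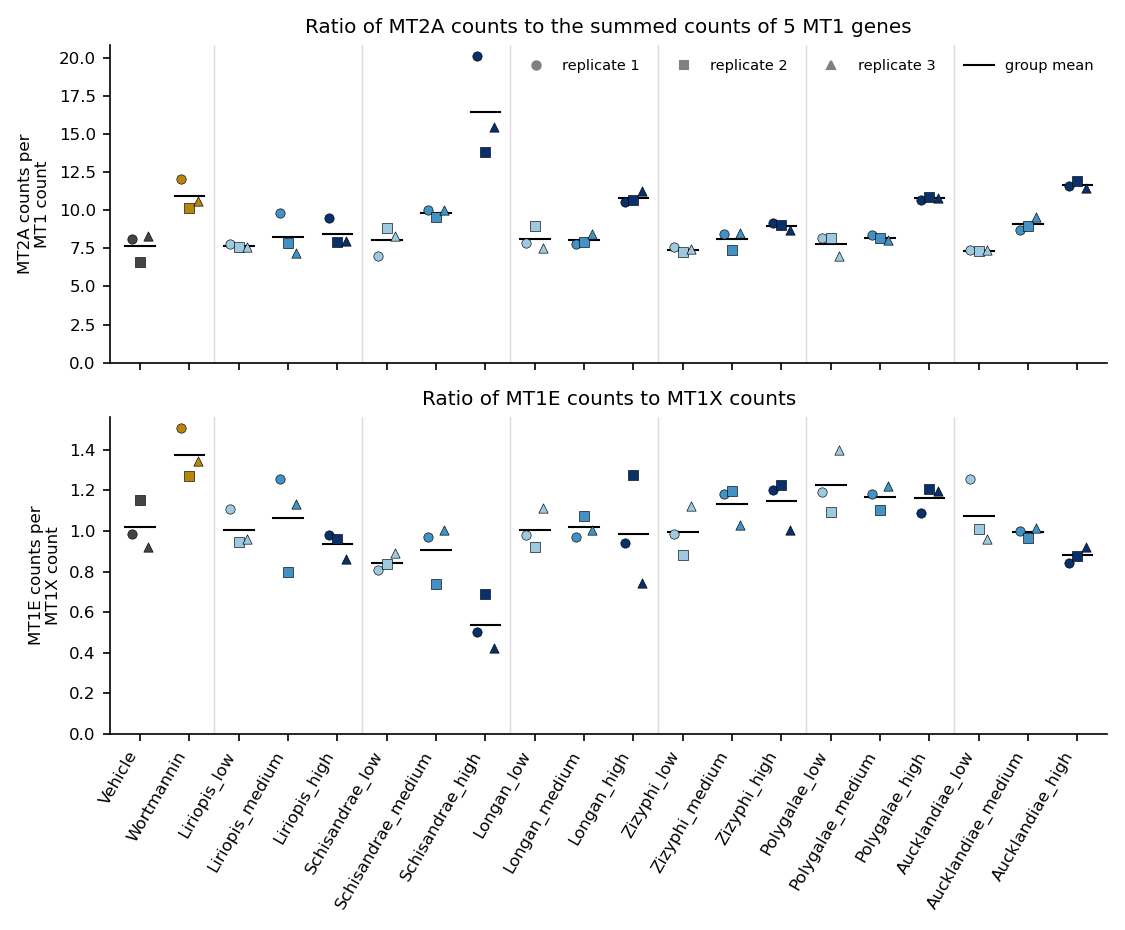
MT2A counts per summed MT1 count (upper panel) and MT1E counts per MT1X count (lower panel) in each of the 60 libraries, by treatment group; symbols mark replicates and bars group means, and both axes start at 0. The MT2A ratio is highest under Schisandrae at its highest concentration, at 13.85 to 20.2, against 6.58 to 8.28 in vehicle, and the MT1E ratio there lies at 0.423 to 0.689, against 0.922 to 1.15 in vehicle.

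Over the 20 group means of log2 CPM, MT1E and MT1X had a Pearson correlation of 0.899, MT2A and MT1X of 0.693 and MT2A and MT1E of 0.610. These are descriptions over groups that share library sets. Without the highest Liriopis concentration, 19 groups gave 0.909, 0.688 and 0.604.

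MT1F was scarce, with 476 counts in 60 libraries and 2 libraries at 0. It was at 0.329, 0.360 and 0.309 CPM in vehicle and at 0.737, 0.554 and 0.561 CPM under wortmannin, above all vehicle libraries, and it passed in none of the 33 comparisons. MT1M had 97 counts, with 14 libraries at 0 and at most 5 counts in a library. MT1G, the member on the minus strand, had 46 counts, with 32 libraries at 0 and at most 4 counts. At these depths differences in MT1G and MT1M between groups were not detectable.

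Of the other metallothionein rows, the pseudogene MT1L was the most counted, at 1701 counts, and it rose under the Schisandrae concentration at which MT1E and MT1X fell. It was at 1.28, 0.936 and 0.734 CPM in vehicle and at 2.41, 1.66 and 2.75 CPM under Schisandrae at 500 µg/mL, without overlap. MT1L rose there by 1.21 (SE 0.31, edgeR adjusted p = 0.00108), and by 1.20 (SE 0.31, edgeR adjusted p = 0.00128) against 20 µg/mL. Its changes of 0.67 under wortmannin (SE 0.31, edgeR adjusted p = 0.184) and 0.33 under Polygalae at 250 µg/mL (SE 0.33, edgeR adjusted p = 0.439) did not pass. Over the 20 group means its Pearson correlation was -0.257 with MT1E and -0.0138 with MT1X, again over groups that share library sets. No window of 100 bases of MT1L occurs in another metallothionein gene. MT1A had 174 counts, MT3, the isoform known from neurons, 37, MT1XP1 7, and MT1JP, MT1P1 and MT1P3 1 each. MT1A lay at 0.1695 to 0.391 CPM under Schisandrae at 500 µg/mL and at 0 to 0.0773 CPM in vehicle. Liriopis at 100 µg/mL (0.138 to 0.179 CPM) and 500 µg/mL (0.127 to 0.267 CPM) also lay above vehicle. So did Zizyphi at 100 µg/mL (0.08 to 0.214 CPM) and Polygalae at 250 µg/mL (0.0916 to 0.221 CPM), while the other groups overlapped vehicle. MT1A counts reached at most 8 in a library, and it was not tested. MT1B, MT1H, MT4, MT1CP, MT1DP, MT1HL1 and MT1IP were at 0 in all libraries.

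Regulators and partners of metallothioneins were followed from lists of other genes. MTF1, the zinc sensor that drives these genes, rose by 0.43 (SE 0.11, edgeR adjusted p = 0.000647) under Schisandrae at 500 µg/mL and by 0.51 (SE 0.11, edgeR adjusted p = 8.31e-05) under Polygalae at 250 µg/mL. Its level was 34.3, 37.1 and 43.1 CPM in vehicle, 54.5, 51.3 and 48.9 CPM under Schisandrae and 56.5, 53.9 and 52.5 CPM under Polygalae. Under wortmannin, where MT2A also rose, MTF1 stood at 38.6 to 42.6 CPM, overlapping vehicle, and its change of 0.09 (SE 0.11) did not pass (edgeR adjusted p = 0.689). Under Liriopis at 500 µg/mL it was -0.21 (SE 0.11, edgeR adjusted p = 0.122). Without the Liriopis library that stood apart, MTF1 also rose by 0.25 at 50 µg/mL of Polygalae (edgeR adjusted p = 0.00178).

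SLC30A1, the exporter that MTF1 also drives, fell under Schisandrae at 500 µg/mL by 0.64 against vehicle (SE 0.09, edgeR adjusted p = 4.13e-08) and by 0.61 against 20 µg/mL (SE 0.09, edgeR adjusted p = 1.46e-07). It stood at 61.2, 66.8 and 69.8 CPM in vehicle and at 43.0, 41.7 and 41.8 CPM under that treatment. SLC30A1 passed against vehicle in no other group with all libraries kept. It also fell under Longan at 500 µg/mL without the Liriopis library that stood apart (edgeR adjusted p = 0.00528 against vehicle and 0.0285 against 20 µg/mL).

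Counts of the lists below are read against all tested genes, of which 25.3% rose and 25.6% fell under Schisandrae at 500 µg/mL, 23.1% and 22.9% under Polygalae at 250 µg/mL, 6.54% and 6.69% under Aucklandiae at 500 µg/mL, and 5.45% and 6.52% under wortmannin. In either direction 50.9% passed under Schisandrae and 46.1% under Polygalae. Calls in either direction among zinc importers (6 of 11 in each), SLC30 transporters (3 of 7 in each) and copper genes (7 and 6 of 12) were near those shares.

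Zinc importers of the SLC39 family were called in both directions under Schisandrae and in 1 under Polygalae. Under Schisandrae at 500 µg/mL 4 of 11 tested rose and 2 fell. Among the rises were SLC39A7 (0.85, SE 0.05), which releases zinc from the endoplasmic reticulum, SLC39A9 (0.85, SE 0.07) and SLC39A10, an importer of the plasma membrane, which went from 47.1 ± 3.896 to 116 ± 2.48 CPM (SD, n = 3). Under Polygalae at 250 µg/mL none of the 11 rose and 6 fell, among them SLC39A7 (-0.24, SE 0.05), SLC39A1 (-0.31, SE 0.07) and SLC39A6 (-0.23, SE 0.06). The median change was 0.00 and -0.23, beside 0.00 and 0.02 over all tested genes. Wortmannin gave 1 rise (SLC39A11) and 1 fall (SLC39A14), and Aucklandiae at 500 µg/mL 2 rises and no fall.

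Of 7 tested SLC30 zinc transporters, 2 rose under Schisandrae at 500 µg/mL (SLC30A5 by 0.55 and SLC30A7 by 0.47) while SLC30A1 fell. Under Polygalae at 250 µg/mL SLC30A6 rose by 0.49, and SLC30A9 (-0.39) and SLC30A5 (-0.29) fell. SLC30A9 fell under wortmannin (-0.14), and SLC30A6 rose under Aucklandiae at 500 µg/mL (0.25). Of 12 copper genes 4 rose and 3 fell under Schisandrae, among them the importer SLC31A1 (1.32, SE 0.06), and 3 rose and 3 fell under Polygalae, among them SLC31A2 (1.09, SE 0.09). None passed under wortmannin or Aucklandiae with all libraries kept.

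Stress genes that heavy metals induce, a list of 17, were followed because metallothioneins belong to the same response. Under Polygalae at 250 µg/mL 15 of 17 rose and none fell (median 1.61), where 23.1% of all genes rose. HMOX1, which degrades heme, went from 56.5 ± 1.38 to 999 ± 21.3 CPM (SD, n = 3, change 4.14, SE 0.11), and SRXN1 and OSGIN1, targets of the antioxidant factor NRF2, rose by 1.84 and 2.81. Under wortmannin 1 of 17 rose and 5 fell (median -0.04), where 5.45% and 6.52% of all genes did, with HMOX1 at 31.6 ± 2.82 CPM (change -0.84, SE 0.10) and GCLM and ATF3 lower by -0.41 and -0.80. The MT2A ranges of these groups overlapped.

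Genes of this list also rose under Schisandrae and Aucklandiae. Under Schisandrae at 500 µg/mL 13 of 17 rose and 2 fell (median 0.74), where 25.3% and 25.6% of all genes did. Among the rises were the chaperone HSPA1A (1.01, SE 0.07), TXNRD1 (0.83, SE 0.06) and SRXN1 (0.63, SE 0.05). Under Aucklandiae at 500 µg/mL 10 rose and 3 fell (median 0.61), where 6.54% and 6.69% of all genes did, with SRXN1 (0.88), HMOX1 (1.40) and TXNRD1 (0.84) among the rises. Under Longan 1 rose (OSGIN1, 0.32), where 0.298% of all genes did, and under Zizyphi 1 fell (HSPA1A, -0.33), where 0.360% did. Without the Liriopis library that stood apart, Longan gave 4 rises and no fall, and the counts in the other groups of this paragraph and the one before moved by at most 1 gene each way.

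Of 12 tested glucocorticoid-induced genes, 3 rose and 2 fell under wortmannin, with KLF9 at 0.44 and SGK1 at 0.22 above vehicle and CRISPLD2 at -0.53. Polygalae at 250 µg/mL raised 5 and lowered 3, with DUSP1 at 1.41, SGK1 at 0.96 and CRISPLD2 at -1.51. Schisandrae at 500 µg/mL raised 5 and lowered 2, among them ANGPTL4 at 2.78 and DUSP1 at 1.92, and Aucklandiae raised 2 and lowered 4. The calls in either direction, 8 and 7 of 12 under Polygalae and Schisandrae, stand beside 46.1% and 50.9% of all genes. Among 10 genes of metal-responsive regulation, 4 rose and 3 fell under Schisandrae, and 4 rose and 3 fell under Polygalae, beside the same shares. The zinc-sensing receptor GPR39 fell under Schisandrae (-1.90, SE 0.22) and Polygalae (-1.73, SE 0.21). NFE2L2 rose under Polygalae (0.61, SE 0.06), and the glucocorticoid receptor NR3C1 fell under Schisandrae (-0.39, SE 0.09). STAT3 also passed under Polygalae. It alone passed under wortmannin, where it fell and 6.52% of all genes did. None of the 10 passed under Aucklandiae.

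The lists were also counted within the library sets, against the lowest concentration. There 25.0% of all genes rose and 24.8% fell under Schisandrae, 17.9% and 18.3% under Polygalae, and 5.32% and 5.30% under Aucklandiae. Of the 17 stress genes 12 rose and 2 fell under Schisandrae, 15 rose and none fell under Polygalae, and 9 rose and 3 fell under Aucklandiae. Zinc importers gave 4 rises and 2 falls under Schisandrae, 3 falls under Polygalae and 1 rise under Aucklandiae. SLC30 transporters gave 3 rises and 1 fall under Schisandrae, 2 and 2 under Polygalae and 1 rise under Aucklandiae. With all libraries kept, Longan gave no call in any of the 6 lists against its lowest concentration, and Zizyphi gave 1, a rise among the glucocorticoid-induced genes. With the Liriopis library that stood apart left out, 4 stress genes rose and 1 fell under Longan, 1 glucocorticoid-induced gene rose and 1 fell, and 1 SLC30 and 1 SLC39 transporter fell, where 0.819% of all genes rose and 1.00% fell. Under Zizyphi 5 stress genes rose and 1 fell, and 1 zinc importer and 1 glucocorticoid-induced gene rose, where 1.42% of all genes rose and 1.45% fell. Zinc importers in that fit gave 1 rise and 6 falls under Polygalae, 4 and 4 under Schisandrae, and 2 and 3 under Aucklandiae, where 22.7%, 28.7% and 9.30% of all genes fell.

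In Liriopis at 500 µg/mL, 5 copper genes rose and 3 fell, 3 zinc importers rose, and 5 stress genes rose and 1 fell, where 18.7% of all genes rose and 15.2% fell. Without replicate 1, none passed in any of these lists.

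Markers of other cell types moved with some of the same treatments. Fibroblast and mural markers, 7 of 7 tested, all fell under Polygalae at 250 µg/mL, to a sum of 1382 to 1496 CPM, and under Aucklandiae at 500 µg/mL, to 3563 to 3640 CPM, where 22.9% and 6.69% of all genes fell. Under Schisandrae at 500 µg/mL 6 of 7 fell and 1 rose (5310 to 5649 CPM), where 25.6% of all genes fell, and under wortmannin 3 rose and 1 fell (6445 to 6780 CPM), where 5.45% and 6.52% did. The lowest of this list in vehicle was DCN, at 9.59 CPM. All 60 libraries came from the cell line SW1783, so a change in these genes does not show fewer cells of a type. Against vehicle, astrocyte markers fell in 4 of 5 tested under Schisandrae at 500 µg/mL and rose in 1. They summed to 243.8 to 264.3 CPM there and to 314.2 to 331.6 CPM in vehicle. Against the lowest Schisandrae concentration, within the library set, only 2 of the 5 fell and 1 rose. Of the same 5 against vehicle, 2 fell under Polygalae at 250 µg/mL, 1 fell under Aucklandiae at 500 µg/mL and 1 rose under wortmannin. Neuron markers fell in 4 of 5 tested under Schisandrae at 500 µg/mL and rose in 1, against vehicle and against its lowest concentration. Their sum was 25.2 to 26.95 CPM there and 60.4 to 63.9 CPM in vehicle, where GAP43 was at 0 and STMN2 under 0.1 CPM. Their part in the metallothionein results was not tested.

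Outside the family, the 5 genes whose 20 group means were most like those of MT2A were LINC00963 (Pearson r 0.919), EPB41L4A-AS1 (0.901), DUSP4 (0.858), TM2D1 (0.853) and CHIC2 (0.853). Most like the MT1 sum were TMEM255B (0.919), FAM217B (0.908), GSPT2 (0.903), TTC5 (0.895) and CMTM3 (0.892). These were taken from genes with a mean of at least 5 CPM. With each library set centred on its own mean, CHIC2 (0.92) alone stayed among the 5 most like MT2A. The others were then FTH1 (0.926), the heavy chain of the iron store ferritin, MED6 (0.924), UPP1 (0.919) and ZNF502 (0.918). None stayed among those most like the MT1 sum.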

How the data were processed

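RNA of 60 SW1783 libraries was sequenced as 100 bp paired-end reads with a directional mRNA kit, per the labels' protocols. The authors deposited RSEM expected counts per gene. The submitters' processing notes name FastQC 0.11.9, Trim Galore 0.6.5, STAR 2.7.3a, RSEM 1.3.3 and GRCh38. For the annotation release and the strand setting, nothing was given in the sources used here. By the design text, outliers with little RNA were removed before deposit. The labels and the design text give different DMSO percentages for vehicle, so none is printed.

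Of the expected counts, 11.02% were not whole, and all were rounded. Genes were filtered with filterByExpr (minimum count 10), leaving 17792 of 60675. One edgeR 4.0.16 quasi-likelihood fit (R 4.3.3, TMM scaling) covered all 20 groups, with 40 residual degrees of freedom. It gave 33 comparisons: 19 with vehicle, 6 of high and 6 of medium with low concentration, and 2 between extracts. The contrasts of concentration changes between the extracts of a set came from the same fit and were chosen after the data were seen. Benjamini-Hochberg adjustment ran over all genes of a comparison, with a threshold of 0.05. The summed MT1 counts replaced their genes in a second fit. The standard error is the size of the log2 change over the square root of F. The procedure was tested on simulated data for wortmannin against vehicle (17225 genes): 81 of 100 genes changed 1.5-fold and 96 of 100 changed 2-fold were called, with 9 unchanged genes called.

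The members and lists were chosen with earlier results of these data known. Beside the members, the text names up to 3 called genes per list and comparison, and the 5 genes most like MT2A or the MT1 sum. Same-numbered replicates correlated above 0.1 in all 3 pairs in 6 of 33 comparisons. Alternatives were DESeq2 1.42.0, other scalings and filters, other sums, fits of 2 groups only, replicate blocks and each library left out.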

Additional observations from a re-analysis of the deposited data

Results flagged for a closer look

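The change from 20 to 500 µg/mL differed between Schisandrae and Liriopis, 2 extracts of one library set, for 3 measures. In this contrast, chosen after the data were seen, 7758 of 17792 tested genes passed in either direction. The difference in log2 change, Schisandrae minus Liriopis, was -1.546 for MT1E (edgeR adjusted p = 8.24e-05), -0.9691 for MT1X (edgeR adjusted p = 0.00323) and -1.205 for the MT1 sum (edgeR adjusted p = 0.000228). Without replicate 1 of Liriopis at 500 µg/mL they were -0.91 (edgeR adjusted p = 0.000793), -0.40 (edgeR adjusted p = 0.0798) and -0.60 (edgeR adjusted p = 0.00213). That replicate held the highest level of MT1E and MT1X of the 60 libraries.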

How the results depend on the processing

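Of 2535 values recomputed under another setting, 2426 kept their direction and side of the threshold, 37 lost a call, 68 gained one and 4 reversed, while 116 more changed sign without a call before or after. All values here are log2 changes, and where no fewer samples or other sum is named the cause was not tested. Adding MT2A to the MT1 sum gave 0.5789 and 0.5694 for the highest Liriopis concentration against the lowest and vehicle, 0.5468 for Polygalae against the lowest, 0.1476 and -0.01095 for Schisandrae against the lowest and vehicle, and 0.9345 for wortmannin. Summing every MT1 row gave 0.4297 for Polygalae at 50 µg/mL. DESeq2 gave the MT1 sum -0.6011 for Longan at 500 µg/mL, and no filter gave 0.4654 for the sum under wortmannin and 0.4845 for MT2A under Aucklandiae at 500 µg/mL.

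Fits of only the groups compared gave the MT1 sum -0.5884 for Longan at 500 µg/mL, 0.3638 for Polygalae at 10 µg/mL, 0.4535 for wortmannin, -0.3555 for the highest against the lowest Zizyphi and -1.412 for Schisandrae against Liriopis. For MT2A they gave 0.4827 and 0.4805 for Aucklandiae against the lowest and vehicle, 0.6062 and 0.5979 for Liriopis, 0.4029 for Polygalae at 10 µg/mL and -0.5169 for Schisandrae against Liriopis. A replicate block within each library set ended 2 MT2A calls, Liriopis highest against lowest at 0.4918 and Schisandrae against Liriopis at -0.4137. A plain replicate block changed no call of a member, with MT2A under wortmannin at 0.9878.

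Leaving out single libraries moved the MT1 sum between -0.2138 and 0.6305 for Liriopis highest against lowest, -0.248 and 0.5963 for Liriopis against vehicle, -0.5869 and -0.3727 for Longan highest against lowest, -0.7069 and -0.4785 for Longan against vehicle, 0.3827 and 0.5997 for Polygalae at 250 µg/mL, 0.3457 and 0.5628 at 50 µg/mL, 0.2628 and 0.4798 at 10 µg/mL, -0.4598 and -0.2427 for Schisandrae at 100 µg/mL, 0.3554 and 0.5724 for wortmannin, and -0.4035 and -0.3194 for Zizyphi highest against lowest. MT2A moved between 0.4418 and 0.5111 for Aucklandiae highest against lowest, 0.4351 and 0.5274 against vehicle, -0.168 and 0.8812 for Liriopis highest against lowest, -0.1741 and 0.8735 against vehicle, 0.356 and 0.4483 for Polygalae at 10 µg/mL, 0.5168 and 0.609 at 50 µg/mL, and -0.7924 and 0.2574 for Schisandrae against Liriopis. The call of MT2A at 50 µg/mL of Polygalae ended without 5 of the 7 libraries left out. The negative Liriopis values and the 0.2574 came without replicate 1 of Liriopis at 500 µg/mL. In that fit the difference of concentration changes for MT2A, Schisandrae minus Liriopis, was 0.3981 and passed (edgeR adjusted p = 0.0350). With that replicate it was -0.37 and did not pass (edgeR adjusted p = 0.310). Depth limited MT1G and MT1M, and MT1F had few counts.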
